A study of Mus musculus with 4 samples.

Results

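The genes of glucose uptake, glycolysis and the pentose phosphate pathway form a module of 38 genes, chosen by symbol, out of the 24537 genes measured in ILC2s from bronchoalveolar lavage (BAL) fluid. Group 2 innate lymphoid cells (ILC2s) are lymphocytes without antigen receptors that secrete IL-5 and IL-13. The members cover 20 steps: glucose transporters, the enzymes from hexokinase to lactate dehydrogenase, the carriers and enzymes that handle pyruvate and lactate, the pentose phosphate enzymes and the regulator *Hif1a*. The study compared ILC2s from acute IL-33-driven and chronic house dust mite (HDM)-driven airway inflammation, with 2 Smart-seq2 libraries in each group. Smart-seq2 makes full-length cDNA from few cells and does not mark the strand.

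The IL-33 group consisted of mice labelled Gata3-YFP/YFP that received 3 doses of 0.5 µg IL-33, and its population was labelled CD25High. The chronic HDM group consisted of mice labelled Gata3-YFP/WT that received 25 µg HDM extract, 3 times per week for 5 weeks, and its population was labelled CD25Low. Both groups carried a GATA3 reporter that produces YFP along with GATA3, on a C57BL/6 background, were 8 to 16 weeks old and were analysed 1 day after the final challenge. The sort kept YFP+ cells that were Lineage- and Sca-1+, so the reporter that marks them was present in both groups. The study's methods mention homozygous reporter mice only, while the labels give the chronic HDM mice 1 reporter allele. Treatment, duration, labelled genotype and the CD25 label of the population differ together and cannot be told apart. RNA of the sex-linked gene *Xist*, given below, also differed between the groups. There were no untreated libraries, so every difference below is between these treatments. The labels do not say how many mice went into a library, and the p-values therefore measure only the spread between these libraries.

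Glucose enters cells through facilitated transporters and is trapped by hexokinase. The preparatory steps of glycolysis use ATP to make triose phosphates, the payoff steps regain ATP and NADH and end in pyruvate, and lactate dehydrogenase regenerates NAD+ by turning pyruvate into lactate. Pyruvate can instead enter mitochondria and be converted by the pyruvate dehydrogenase complex, which pyruvate dehydrogenase kinases switch off. The pentose phosphate pathway branches off after hexokinase and supplies NADPH and ribose phosphate. Activated lymphocytes are known for high glucose use, and many of the steps can be carried out by several isozymes encoded by separate genes.

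Levels are RPKM, mapped reads normalised to exon length and to the size of the library, so that levels of different genes can be set side by side per length. The libraries held 10696041 to 16092273 reads in genes. Genes with any read numbered 13102 and 12895 in the IL-33 libraries, against 10675 and 12134 in the chronic HDM libraries. Chronic HDM replicate 1 thus had the fewest genes detected, although it had the most reads in genes. The part of this in values at or near 0 in that library was not tested. Of the reads in genes, 45S ribosomal RNA took 4.95% and 3.45% in the IL-33 libraries and 17.4% and 25.4% in the chronic HDM libraries. The chronic HDM replicates differed more from each other (SD of the differences over genes 1.13 on the log2 scale) than the IL-33 replicates (0.434). All 12 ILC2 markers examined were at 2 RPKM or more in every library, but the levels of several differed between the groups. *Thy1* overlapped, at 32.1 and 38.8 RPKM in the IL-33 libraries and 34.9 and 53.7 RPKM in the chronic HDM libraries. *Rora* was close, at 34.0 and 37.6 against 44.0 and 42.6 RPKM. *Gata3* was at 14.9 and 18.9 RPKM in the IL-33 libraries and 216 and 195 RPKM in the chronic HDM libraries, *Il1rl1* at 77.3 and 79.9 against 217 and 205 RPKM, and *Il2ra*, which encodes CD25, at 432 and 376 against 27.6 and 22.01 RPKM. The 16 macrophage markers summed to 1273 and 289 RPKM in the IL-33 libraries, but to 3160 and 8677 RPKM in the others. Nearly all of each sum was *Chil3* and *Lyz2*, and the macrophage marker *Fcgr1* was at 0 in all 4 libraries. At 2 RPKM or more were 6 and 4 of these markers in the IL-33 libraries and 7 and 14 in the others. Above 0 were 12 and 11 of them in the IL-33 libraries and 8 and 15 in the others. Mast cell and basophil markers summed to 52.2 and 43.1 RPKM against 0 and 2.87 RPKM. Of these, *Mcpt8* alone was at 45.8 and 39.2 RPKM in the IL-33 libraries and at 0 in both others. Erythroid markers summed to 29.0 and 38.7 RPKM against 1.497 and 1.74 RPKM. The 8 T cell markers summed to 80.6 and 104 RPKM against 71.6 and 83.5 RPKM, nearly all of it *Cd3g*, while *Cd4*, *Cd8a*, *Cd8b1* and *Cd5* were at 0 in all 4 libraries. B cell markers summed to 38.4 and 27.4 RPKM against 8.74 and 6.80 RPKM, nearly all of it *Cd79b*, while *Ms4a1* and *Pax5* were at 0 in all 4 libraries. Epithelial markers summed to 14.5 and 5.52 RPKM against 25.7 and 76.0 RPKM, with *Scgb1a1* at 64.6 RPKM in chronic HDM replicate 2 and *Krt8* at 0 throughout. Neutrophil markers summed to 0.395 and 0 RPKM against 14.1 and 6.46 RPKM, all of it *S100a8*. Dendritic cell, eosinophil and NK cell markers summed to at most 12.4 RPKM in any library. The part of these cell types in the differences of the module was not tested.

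Summed over the members, RNA of the module was more abundant after IL-33. The 38 members summed to 6252 and 6307 RPKM in the IL-33 libraries and to 2548 and 2377 RPKM in the chronic HDM libraries. Leaving out 45S ribosomal RNA, this was 1.35% and 1.40% of all RPKM in the IL-33 libraries, compared with 0.715% and 0.707% in the chronic HDM libraries. *Ldha*, *Pkm* and *Aldoa* weighed most in these sums, and the groups overlapped for 7 of the 36 members tested below. *Ldha*, the lactate-producing dehydrogenase subunit, had the highest level of the members and was 12th and 9th of all genes in the IL-33 libraries and 31st and 37th in the chronic HDM libraries. In bulk RNA such shares cannot separate more RNA per cell from a change in the cells present.

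Genes were tested with limma on log2(RPKM + 1) when their mean reached 2 RPKM, which 36 of the 38 members did; *Hk3* and *Eno2* were below it. A gene was called at a Benjamini-Hochberg adjusted p under 0.01, over all 9523 genes tested, with a log2 fold change over 1. Of the 36 tested members, 5 were called higher after IL-33 (*Pfkp*, *Tpi1*, *Eno1*, *Pkm* and *Ldha*), while 2.80% of all genes tested were called in that direction. None was called higher after chronic HDM, where the share over all genes was 0.536%. At an unadjusted limma p under 0.05, 20 members were higher after IL-33 and 1 (*Pdk2*) after chronic HDM, against 25.5% and 11.2% of all genes. With limma-voom on recovered reads no gene at all was called in either direction, and 19 and 1 members passed the unadjusted p, against 21.9% and 10.2% of all genes. With an adjusted p under 0.05 and the same fold, 13 members were higher after IL-33 and 0 after chronic HDM, against 13.8% and 4.78% of all genes. The number of called members moved with that of all genes when single libraries were left out. Without either IL-33 library no gene at all was called, and 9 and 11 members were higher at an unadjusted p under 0.05, against 9.85% and 10.3% of all genes. Without either chronic HDM library 16 members were called higher after IL-33, against 19.8% and 20.8% of all genes. No gene at all was called with a pseudocount of 0.1, without a minimum level or without an intensity trend either, and 2 members (*Pkm* and *Ldha*) were called, against 0.704% of all genes, when all libraries were scaled to the same RPKM sum.

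The IL-33 libraries lay above both chronic HDM libraries for 27 of the 36 members, against 41.7% of all genes tested. They lay below both for 2 members, *Pdk1* and *Pdk2*, against 23.5% of all genes, and the groups overlapped for 7 members. The median log2 fold change of the members was 0.97 (range -1.21 to 2.34), while it was 0.28 over all genes tested. The members were not evenly shifted along the pathway. The median was 0.90 for the 13 tested members of uptake and the preparatory steps, 1.95 for the 6 of the payoff steps, 0.99 for the 11 that handle pyruvate and lactate, and 0.47 for the 5 of the pentose phosphate pathway. All 6 tested payoff members and 3 of the 5 pentose phosphate members were separate with the IL-33 libraries higher, against 41.7% of all genes tested. Called were 2 of the payoff members and 0 of the pentose phosphate members, against 2.80% of all genes tested. With 5 genes and that share, the absence of a call is not informative.

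**Figure D1:**
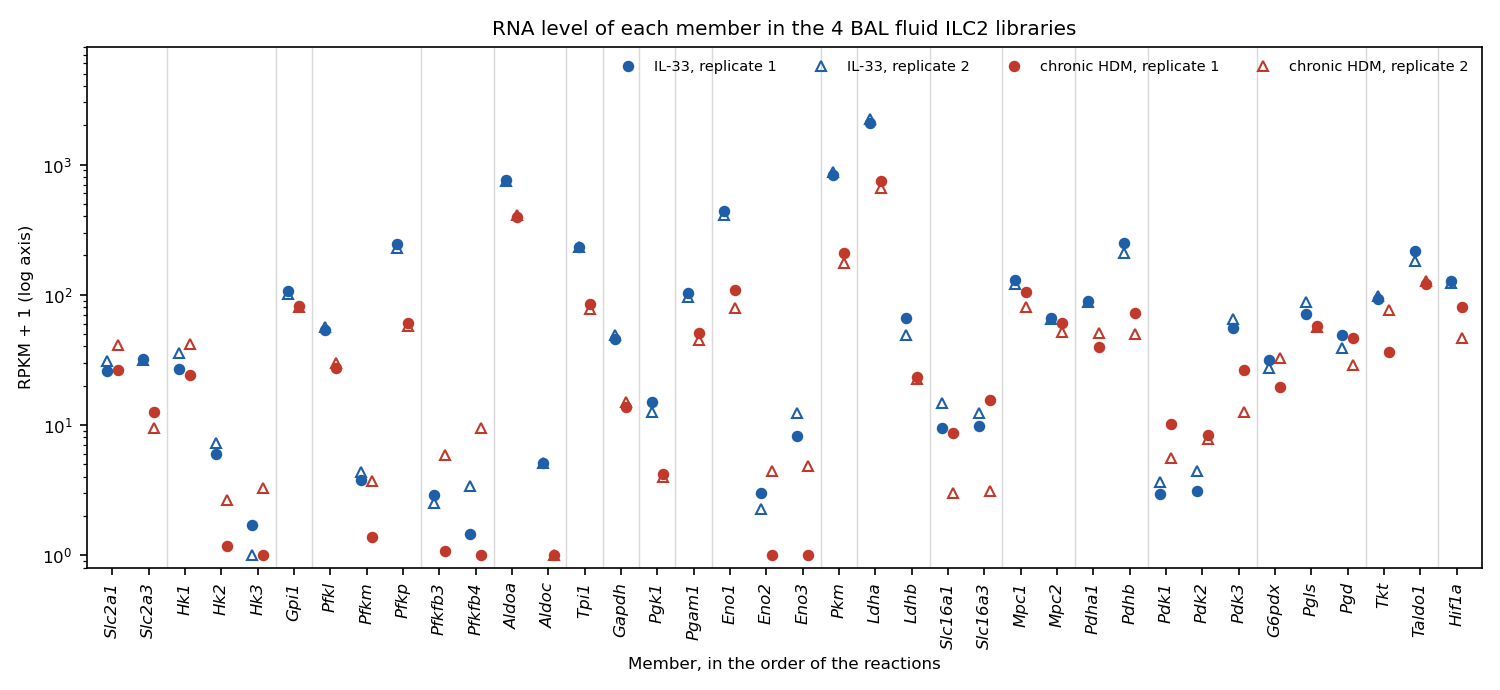
RPKM + 1 on a log axis for each of the 38 members in the order of the reactions, with 1 point per library (blue, IL-33; red, chronic HDM; filled circle, replicate 1; open triangle, replicate 2) and grey lines between steps. From *Tpi1* to *Eno1* and for *Pkm* and *Ldha*, both blue points lie above both red points, whereas *Slc2a1* and *Hk1* overlap and *Pdk1* and *Pdk2* have the red points on top.

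**Figure D2:**
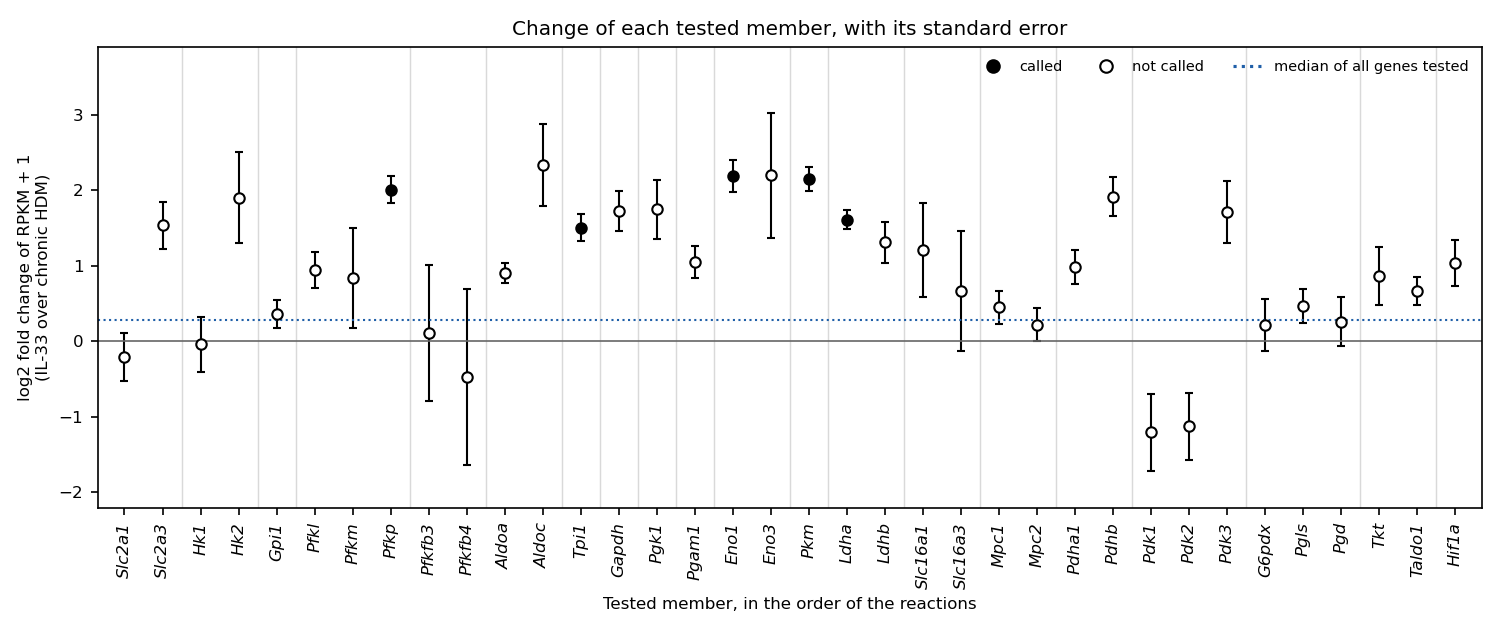
Log2 fold change of RPKM + 1 (IL-33 over chronic HDM) with its standard error for the 36 tested members, in the order of the reactions; filled points were called. The 5 filled points lie between 1.51 and 2.19, above the dotted line, which marks the median over the 9523 genes (0.28).

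Many genes of glycolysis are textbook targets of hypoxia-inducible factors. The promoters of the members were therefore examined for the letters ACGTG, 1 form of the core of the sequence that these factors bind. CACGTG, the E-box bound by MYC family factors, was examined as well. Promoters were the 250 bases before and 50 bases after each start from RefSeq (build GRCm38.p6), available for 37 of the 38 members (all but *Slc2a3*), and both strands were read. For *Hif1a* that start lay 6543 bases from the start of the transcript counted here. It lay 566 bases away for *Hk3*, 281 for *G6pdx*, 208 for the called *Pkm* and 138 for the called *Tpi1*. For the remaining promoters it lay at most 55 bases away. Every CACGTG holds an ACGTG on each strand and was counted as 1 ACGTG site as well. ACGTG was found in 18 of the 37 member promoters (48.6%) and in 19.6% of all 32851 promoters of the same length. CACGTG was found in 5 member promoters (*Pfkm*, *Ldha*, *Slc16a1*, *Pdk2* and *Hif1a*; 13.5%) and in 7.15% of all promoters. Among the 5 called members only the *Ldha* promoter held ACGTG, while 16 of the 30 promoters of tested members that were not called held it. Promoters of 3 members are shown for these contrasts, 5′ to 3′ on the strand of the gene, with the sites in capitals: the called *Ldha* with 3 ACGTG sites, 2 of them within CACGTG (chr7:46845554-46845853, plus strand; sites 145, 48 and 34 bases before the start), *Slc2a1* with 1 site and no higher level after IL-33 (chr4:119108495-119108794, plus strand; 36 bases before the start), and the called *Pfkp* with none (chr13:6648722-6649021, minus strand). In the *Ldha* promoter the last site reads CACGT because it lies on the other strand. The form GCGTG of the core was not counted, and the *Pfkp* promoter printed here holds it. The counts above therefore cover ACGTG only, not all possible sites of these factors.
Ldha: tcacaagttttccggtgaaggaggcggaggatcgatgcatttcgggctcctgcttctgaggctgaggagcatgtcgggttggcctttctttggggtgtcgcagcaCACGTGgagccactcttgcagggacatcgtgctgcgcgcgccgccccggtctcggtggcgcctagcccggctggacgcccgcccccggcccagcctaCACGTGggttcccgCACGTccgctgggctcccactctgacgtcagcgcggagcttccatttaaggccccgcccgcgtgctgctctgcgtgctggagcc
Slc2a1: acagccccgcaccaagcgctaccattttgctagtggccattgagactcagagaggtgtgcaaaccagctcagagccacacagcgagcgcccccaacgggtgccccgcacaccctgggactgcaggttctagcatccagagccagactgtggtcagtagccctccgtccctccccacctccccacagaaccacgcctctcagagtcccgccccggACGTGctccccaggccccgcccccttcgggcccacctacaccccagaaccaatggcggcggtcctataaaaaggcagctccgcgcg
Pfkp: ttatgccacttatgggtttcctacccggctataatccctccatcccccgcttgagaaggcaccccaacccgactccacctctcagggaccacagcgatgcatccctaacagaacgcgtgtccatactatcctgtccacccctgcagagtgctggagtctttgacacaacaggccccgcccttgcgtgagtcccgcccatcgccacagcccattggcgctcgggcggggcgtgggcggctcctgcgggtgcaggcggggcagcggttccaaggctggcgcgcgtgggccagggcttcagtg
Matching letters describe these windows only, and binding was not measured here.

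At glucose uptake, the balance of the transporter genes differed between the groups. *Slc2a1*, which encodes the widely expressed transporter GLUT1, was at 24.8 and 30.1 RPKM in the IL-33 libraries, compared with 25.4 and 39.7 RPKM in the chronic HDM libraries. The groups overlapped, with chronic HDM replicate 2 highest (log2 fold change -0.21 ± 0.32 SE, limma adjusted p = 0.677). *Slc2a3*, encoding the high-affinity transporter GLUT3, was at 30.9 and 30.5 RPKM with IL-33, against 11.6 and 8.44 RPKM with chronic HDM. Both IL-33 libraries were higher (log2 fold change 1.54 ± 0.31 SE, limma adjusted p = 0.0266), which passed 0.05 but not the threshold of 0.01. *Slc2a3* thereby made up 55.5% and 50.3% of the RNA of both transporters with IL-33, against 31.3% and 17.5% with chronic HDM. The summed level of the transporters differed by 0.45 on the log2 scale, and the groups did not overlap.

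At hexokinase, the summed levels overlapped between the groups (difference 0.15 on the log2 scale), while the shares of *Hk1* and *Hk2* did not. *Hk1*, the constitutive isozyme and the main one in all libraries, was measured at 25.8 and 34.5 RPKM in IL-33-stimulated ILC2s and 23.0 and 40.9 RPKM in chronic HDM-stimulated ones. Its groups overlapped (log2 fold change -0.04 ± 0.37 SE, limma adjusted p = 0.953). *Hk2*, the inducible isozyme of activated lymphocytes, was at 4.94 and 6.28 RPKM with IL-33, against 0.171 and 1.63 RPKM (18 and 165 reads) with chronic HDM. The IL-33 libraries were both higher, but the chronic HDM replicates differed from each other and the test was not passed (log2 fold change 1.90 ± 0.60 SE, limma adjusted p = 0.0800). The share of *Hk2* in hexokinase RNA was 15.7% and 15.4% in the IL-33 libraries, compared with 0.739% and 3.65% in the chronic HDM libraries. The lowest share was in chronic HDM replicate 1, the library with the fewest genes detected. *Hk3*, the isozyme of myeloid cells, was at 0.691 and 0 RPKM in the IL-33 libraries, compared with 0 and 2.29 RPKM in the chronic HDM libraries, and was not tested. Its highest value was in chronic HDM replicate 2, the library with the highest macrophage marker sum (8677 RPKM); the part of these markers in the result was not tested. *Gpi1*, the isomerase that follows, was separate between groups by a small margin, at 106 and 99.9 RPKM against 80.8 and 78.7 RPKM (log2 fold change 0.36 ± 0.19 SE, limma adjusted p = 0.226), and its direction turned under quantile normalization.

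Phosphofructokinase, which commits sugar to glycolysis, was the first step with a called member. *Pfkp*, the platelet-type isozyme (chr13:6579874-6648771, mm10), was at 242 and 229 RPKM with IL-33, against 59.4 and 55.9 RPKM with chronic HDM. Replicates of each group lay close together and the groups far apart, with a fold of the means of 4.08 (log2 fold change 2.01 ± 0.18 SE, limma adjusted p = 0.00687). *Pfkl*, the liver-type isozyme, was measured at 52.7 and 55.6 RPKM in IL-33-stimulated ILC2s and 26.2 and 29.0 RPKM in chronic HDM-stimulated ones. Its groups did not overlap, and its log2 fold change of 0.95 ± 0.24 SE (limma adjusted p = 0.0443) stayed below the fold threshold. *Pfkm*, the muscle-type isozyme, was at 2.74 and 3.33 RPKM in the IL-33 libraries, compared with 0.373 and 2.67 RPKM in the chronic HDM libraries (limma adjusted p = 0.402). *Pfkp* was the main isozyme in all libraries, with a share of 81.4% and 79.5% in the IL-33 libraries, compared with 69.1% and 63.8% in the chronic HDM libraries. The log2 ratio of *Pfkp* to *Pfkl* differed by 1.06 between the groups without overlap. With 2 libraries in each group, an exact two-sided permutation test of such a ratio cannot give a p below 0.33, and isozyme ratios and step totals are therefore given as descriptions.

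The bifunctional enzymes that make and degrade fructose-2,6-bisphosphate, the activator of phosphofructokinase, were low and followed no group. *Pfkfb3* was at 1.89 and 1.52 RPKM with IL-33, against 0.079 and 4.83 RPKM with chronic HDM. *Pfkfb4* was measured at 0.457 and 2.39 RPKM in IL-33-stimulated ILC2s and 0 and 8.50 RPKM in chronic HDM-stimulated ones. For both genes, the chronic HDM replicates were the lowest and the highest of the 4 libraries. Their log2 fold changes were 0.11 ± 0.90 SE and -0.47 ± 1.16 SE, with limma adjusted p-values of 0.945 and 0.801. The higher replicate was again the one with the macrophage marker sum of 8677 RPKM, and the part of these markers was not tested. Without chronic HDM replicate 1 the log2 fold change of *Pfkfb3* was -1.11.

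Aldolase, which splits the hexose into triose phosphates, was nearly all *Aldoa* in every library. *Aldoa* was at 764 and 740 RPKM in the IL-33 libraries, compared with 397 and 407 RPKM in the chronic HDM libraries. The groups were well apart (log2 fold change 0.90 ± 0.13 SE, limma adjusted p = 0.0130), but neither threshold for a call was reached. *Aldoc*, the brain-type isozyme, was at 4.07 and 4.05 RPKM (142 and 127 reads) after IL-33 and had no read in either chronic HDM library. Its log2 fold change was 2.34 ± 0.54 SE (limma adjusted p = 0.0371), with 1.60 to 8.56 under the alternatives. Set against a floor of 3 reads per library, it was at least 67.9-fold higher after IL-33, which takes 0 reads as absence. In chronic HDM replicate 1, *Pfkfb4* and *Eno3* also had no read, against 523 and 103 reads in replicate 2. *Aldoc* made up only 0.529% and 0.545% of aldolase RNA after IL-33. *Tpi1*, which interconverts the triose phosphates (chr6:124810592-124814296, mm10), was at 230 and 229 RPKM with IL-33, against 83.8 and 76.8 RPKM with chronic HDM. It was called (log2 fold change 1.51 ± 0.18 SE, fold of the means 2.86, limma adjusted p = 0.00884).

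The payoff steps showed the highest median of the module. *Gapdh*, the dehydrogenase that yields NADH, was measured at 45.01 and 48.03 RPKM in IL-33-stimulated ILC2s and 12.74 and 14.004 RPKM in chronic HDM-stimulated ones (log2 fold change 1.73 ± 0.26 SE, limma adjusted p = 0.0138). *Pgk1*, the first ATP-yielding enzyme, was at 14.03 and 11.5 RPKM in the IL-33 libraries, compared with 3.21 and 2.94 RPKM in the chronic HDM libraries (log2 fold change 1.75 ± 0.39 SE, limma adjusted p = 0.0334). *Pgam1*, the mutase, was at 102 and 95.2 RPKM with IL-33, against 49.9 and 44.0 RPKM with chronic HDM (log2 fold change 1.06 ± 0.21 SE, limma adjusted p = 0.0255). All 3 were separate between the groups and passed 0.05 but not 0.01. *Gapdh*, often used as a reference gene for equal loading, differed here by a fold of the means of 3.48.

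Enolase makes phosphoenolpyruvate. *Eno1* (chr4:150237197-150248873, mm10) was measured at 435 and 406 RPKM in IL-33-stimulated ILC2s and 107 and 78.3 RPKM in chronic HDM-stimulated ones. It had the highest log2 fold change among the called members (2.19 ± 0.21 SE, limma adjusted p = 0.00687). *Eno3*, the muscle isozyme, was at 7.24 and 11.3 RPKM in the IL-33 libraries, compared with 0 and 3.82 RPKM in the chronic HDM libraries, so that its fold rested on a chronic HDM library with no read (limma adjusted p = 0.120). *Eno2*, the neuronal isozyme, was at 2.01 and 1.26 RPKM with IL-33, against 0 and 3.45 RPKM with chronic HDM, and was not tested. *Eno1* was the main isozyme everywhere, with at least 91.5% of enolase RNA. The last payoff enzyme, pyruvate kinase *Pkm* (chr9:59656368-59679375, mm10), was measured at 828 and 872 RPKM in IL-33-stimulated ILC2s and 209 and 173 RPKM in chronic HDM-stimulated ones. The difference of 2.15 ± 0.16 SE on the log2 scale (fold of the means 4.45) had the lowest p-value of the module (limma adjusted p = 0.00671). The files hold 1 value per gene, and the splice forms of *Pkm* were not distinguished.

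Several payoff genes have near-identical copies in the mouse genome, which matters for reads of 51 bases. Of all windows of 51 bases in the transcripts of these genes, 82.4% of *Gapdh*, 71.9% of *Eno1* and 67.9% of *Pgk1* also occurred in transcripts of other annotated genes. *Gapdh* shared windows with 220 genes, 211 of them pseudogenes. Genes overlapping a member were left out of this comparison. *Eno1* shared most with an annotated *Eno1b* that does not overlap it (70.3%). The entry *Eno1b* among the measured genes instead lay within the span of *Eno1*. It was at 368 and 346 RPKM in the IL-33 libraries, compared with 90.3 and 67.1 RPKM in the chronic HDM libraries. Its ratio to *Eno1* was 0.843 to 0.858 in all 4 libraries, but these entries cover the same stretch. The level of *Eno1* is uncertain because of its shared windows. *Pgam1* (41.4%), *Pkm* and *Pdhb* (29.8% each), and *Ldhb* and *Mpc1* (26.3% each) followed. The share was 18.2% for *Ldha* and 0% for *Pfkp*, and 20 of the 38 members shared no window. The names of the read directories in the file headers end in "unique", which may mean that only reads with 1 place in the genome were counted, but how reads matching several places were treated is not stated in the sources used here. Levels of genes with many copies, such as *Gapdh*, *Eno1* and *Pgk1*, are therefore uncertain relative to other genes.

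**Figure D3:**
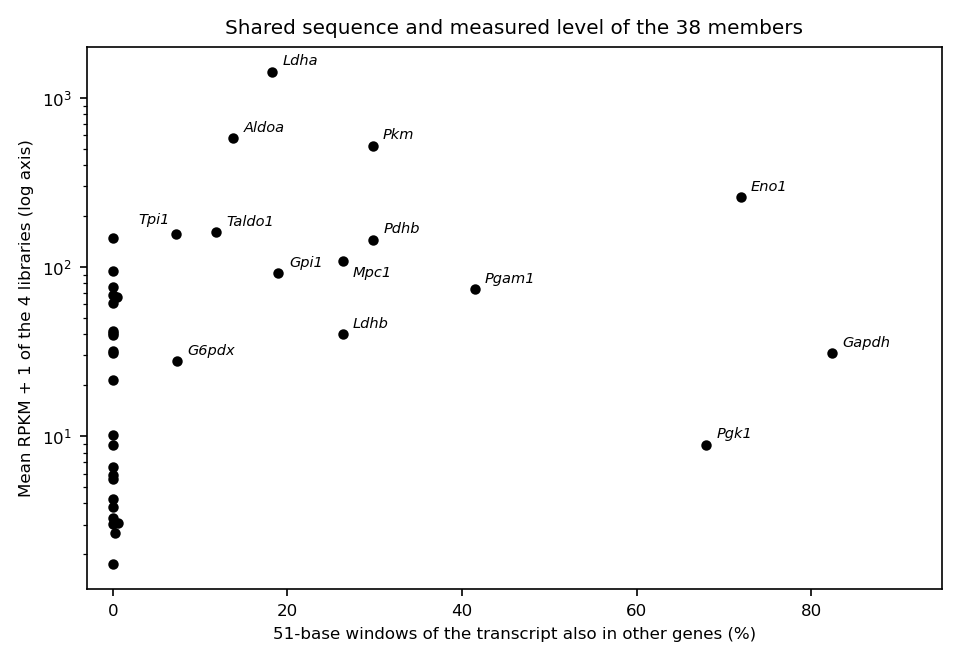
Mean RPKM + 1 of the 4 libraries (log axis) against the percentage of 51-base windows of the transcript that also occur in other annotated genes, with 1 point per member. *Gapdh* (82.4%) and *Pgk1* (67.9%) combine many shared windows with levels below those of *Aldoa*, *Pkm* and *Ldha*. *Eno1* (71.9%) combines many with a mean of 257 RPKM, and 20 members lie at 0%.

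Lactate dehydrogenase reduces pyruvate to lactate. *Ldha* (chr7:46845804-46855627, mm10) was at 2072 and 2227 RPKM with IL-33, against 742 and 662 RPKM with chronic HDM. It was called (log2 fold change 1.61 ± 0.13 SE, fold of the means 3.06, limma adjusted p = 0.00687). *Ldhb*, the heart-type subunit that favours the reverse reaction, was measured at 64.7 and 48.3 RPKM in IL-33-stimulated ILC2s and 22.5 and 21.4 RPKM in chronic HDM-stimulated ones (log2 fold change 1.31 ± 0.27 SE, limma adjusted p = 0.0274). Unlike at uptake, hexokinase and phosphofructokinase, the isozyme shares overlapped: *Ldha* made up 97.0% and 97.9% in the IL-33 libraries, compared with 97.1% and 96.9% in the chronic HDM libraries.

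The lactate transporters were low and varied between the chronic HDM replicates. *Slc16a1*, encoding MCT1, was at 8.42 and 13.6 RPKM in the IL-33 libraries, compared with 7.67 and 1.97 RPKM in the chronic HDM libraries. The groups were just separate (log2 fold change 1.21 ± 0.63 SE, limma adjusted p = 0.222). *Slc16a3*, encoding the exporter MCT4 of highly glycolytic cells, was at 8.76 and 11.3 RPKM with IL-33, against 14.5 and 2.08 RPKM with chronic HDM. Here the chronic HDM replicates lay on either side of the IL-33 libraries (log2 fold change 0.67 ± 0.80 SE, limma adjusted p = 0.585), and without chronic HDM replicate 2 the log2 fold change was -0.50. The levels of either transporter were well below that of *Ldha*, on the same per-length scale.

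For the entry of pyruvate into mitochondria, the carrier and the dehydrogenase differed in size of change. The carrier subunits *Mpc1* (129 and 121 against 105 and 78.7 RPKM) and *Mpc2* (65.4 and 63.4 against 59.4 and 51.1 RPKM) were separate between groups, with log2 fold changes of 0.45 and 0.22 and limma adjusted p-values of 0.202 and 0.506. Quantile normalization turned the direction of both, and the other rescalings that of *Mpc2*. *Pdhb*, the beta subunit of the first enzyme of the pyruvate dehydrogenase complex, was measured at 250 and 207 RPKM in IL-33-stimulated ILC2s and 71.5 and 49.2 RPKM in chronic HDM-stimulated ones. With a log2 fold change of 1.92 ± 0.25 SE and a limma adjusted p of 0.0109, it just missed the threshold. *Pdha1*, the alpha subunit with which it pairs, was at 88.7 and 86.1 RPKM in the IL-33 libraries, compared with 38.6 and 49.3 RPKM in the chronic HDM libraries (log2 fold change 0.99 ± 0.23 SE, limma adjusted p = 0.0385).

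The kinases that inactivate pyruvate dehydrogenase differed between the groups in their isozyme ratios. *Pdk3* was at 54.1 and 63.5 RPKM with IL-33, against 25.4 and 11.5 RPKM with chronic HDM (log2 fold change 1.71 ± 0.41 SE, limma adjusted p = 0.0406). *Pdk1*, a known target of hypoxia-inducible factor, was measured at 1.92 and 2.65 RPKM in IL-33-stimulated ILC2s and 9.16 and 4.58 RPKM in chronic HDM-stimulated ones (log2 fold change -1.21 ± 0.51 SE, limma adjusted p = 0.153). *Pdk2*, the broadly expressed kinase, was at 2.10 and 3.41 RPKM in the IL-33 libraries, compared with 7.31 and 6.81 RPKM in the chronic HDM libraries (log2 fold change -1.12 ± 0.44 SE, limma adjusted p = 0.132). These were the only 2 members with both chronic HDM libraries above both IL-33 libraries, and neither passed the test. *Pdk3* made up 93.1% and 91.3% of the kinase RNA with IL-33, against 60.7% and 50.3% with chronic HDM. The log2 ratios of *Pdk1* and *Pdk2* to *Pdk3* differed by -2.92 and -2.84 between the groups, with no overlap. The fourth kinase gene, *Pdk4*, belonged to the wider lists and did not reach the minimum of 2 RPKM.

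**Figure D4:**
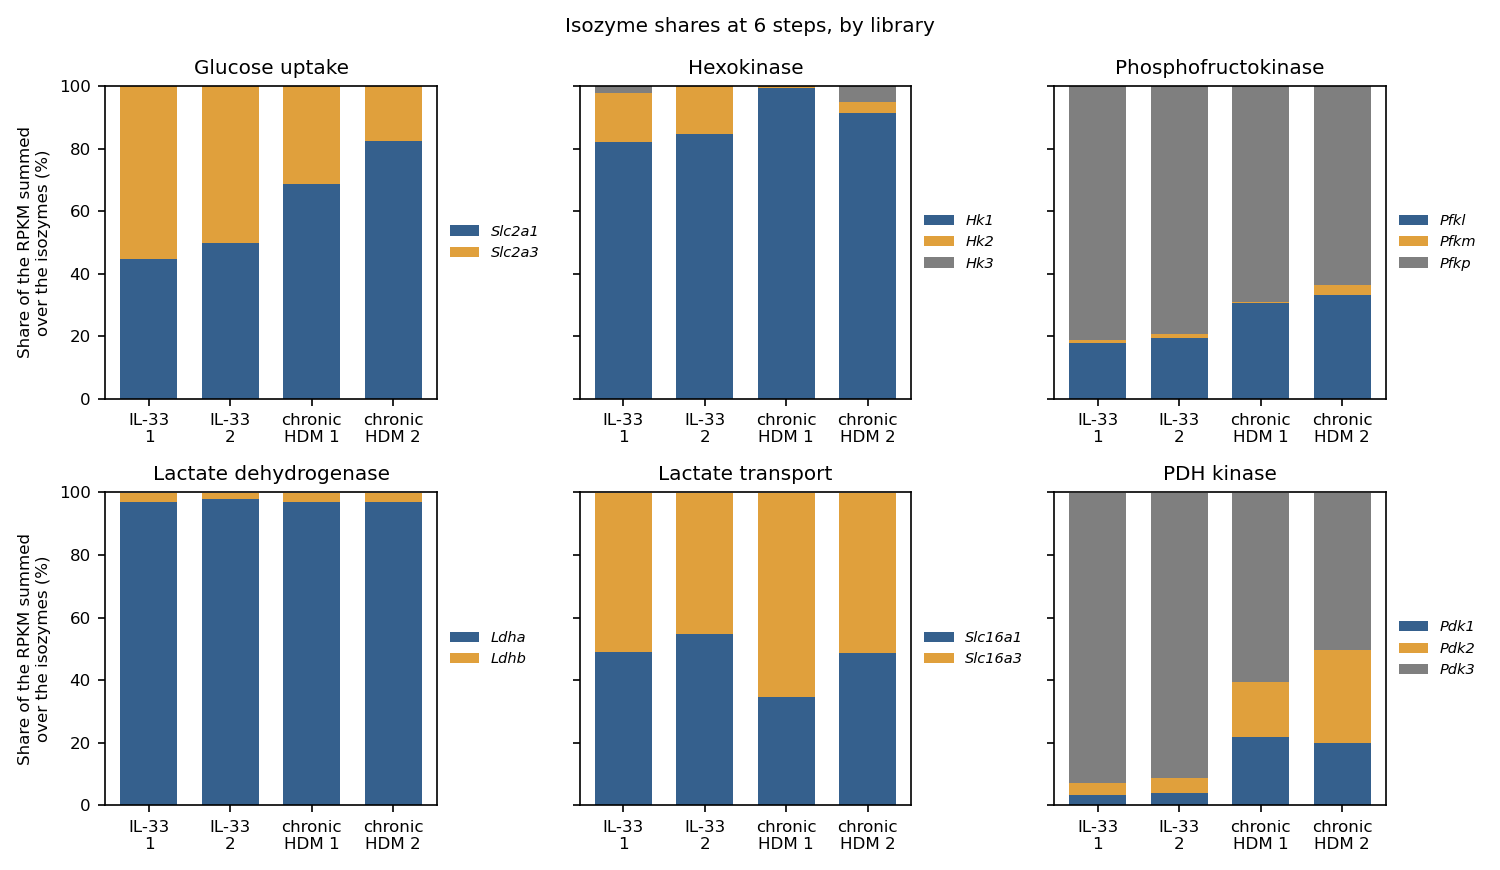
Share of each isozyme in the RPKM summed over the isozymes of a step (%), as stacked bars for the 4 libraries at 6 steps. The share of *Slc2a3*, *Hk2*, *Pfkp* and *Pdk3* is higher in both IL-33 libraries than in both chronic HDM libraries, while *Ldha* makes up 96.9% to 97.9% in all.

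The pentose phosphate pathway had the lowest median of the module. In its oxidative branch, *G6pdx*, the NADPH-producing entry enzyme, was at 30.5 and 26.1 RPKM with IL-33, against 18.5 and 31.5 RPKM with chronic HDM, and *Pgd*, the second NADPH-producing enzyme, was measured at 48.1 and 37.7 RPKM in IL-33-stimulated ILC2s and 45.05 and 27.8 RPKM in chronic HDM-stimulated ones. Both overlapped between the groups (limma adjusted p = 0.689 and 0.602). *Pgls*, the lactonase between them, was at 70.2 and 86.9 RPKM in the IL-33 libraries, compared with 56.5 and 55.9 RPKM in the chronic HDM libraries (log2 fold change 0.47 ± 0.22 SE, limma adjusted p = 0.191), with the direction turned under quantile normalization. In the non-oxidative branch, which leads sugar phosphates back to glycolysis, *Taldo1* was at 215 and 179 RPKM with IL-33, against 120 and 127 RPKM with chronic HDM. *Tkt* was measured at 92.0 and 97.2 RPKM in IL-33-stimulated ILC2s and 35.1 and 75.7 RPKM in chronic HDM-stimulated ones. The groups were separate for both, with log2 fold changes of 0.67 ± 0.19 SE and 0.86 ± 0.38 SE, and neither passed the test (limma adjusted p = 0.0600 and 0.170). The summed level of the oxidative branch differed by 0.35 and that of the non-oxidative branch by 0.71 on the log2 scale, against 1.74 at phosphofructokinase, 2.16 at enolase and 1.61 at lactate dehydrogenase.

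*Hif1a*, which encodes the oxygen-regulated transcription factor that drives many glycolytic genes, was at 126 and 123 RPKM in the IL-33 libraries, compared with 79.6 and 45.5 RPKM in the chronic HDM libraries. The groups were separate (log2 fold change 1.04 ± 0.31 SE), but the test was not passed (limma adjusted p = 0.0688). Its protein is mainly regulated by degradation, which RNA levels do not show.

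Members on the X chromosome were *Pgk1*, *Pdha1*, *Pdk3* and *G6pdx*. *Xist*, the RNA of the inactive X chromosome, was at 0 and 0.014 RPKM in the IL-33 libraries and at 7.62 and 10.2 RPKM in the chronic HDM libraries, while the Y-linked *Ddx3y* was at 15.7 and 13.8 RPKM and at 7.09 and 5.55 RPKM. The chronic HDM libraries thus held both *Xist* and Y-linked RNA. The part of this in the values of these 4 genes, or of the other members, was not tested. On chromosome 6, *Eno2*, *Tpi1* and *Gapdh* lay within 406 kb of each other, and only *Tpi1* of these was called.

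Other genes of glucose metabolism were examined by lists, with 120 genes in the files and 85 of them tested. Of these, 4 were called higher after IL-33 (*Phgdh*, *Prps1*, *Mdh2* and *Ero1l*) and 1 higher after chronic HDM (*Txnip*), against 2.80% and 0.536% of all genes tested. *Prps1*, which makes phosphoribosyl pyrophosphate from the ribose phosphate of the pentose phosphate pathway, was at 281 and 240 RPKM with IL-33, against 50.4 and 26.9 RPKM with chronic HDM (log2 fold change 2.79 ± 0.33 SE, limma adjusted p = 0.00906). It was the called gene of the pentose phosphate list, where *Rpe* and *Prps2* were not called (limma adjusted p = 0.854 and 0.398). *Txnip*, an inhibitor of glucose uptake that is itself induced by glucose, was measured at 19.5 and 27.9 RPKM in IL-33-stimulated ILC2s and 127 and 101 RPKM in chronic HDM-stimulated ones (log2 fold change -2.23 ± 0.28 SE, limma adjusted p = 0.00994). *Txnip* was thus the only gene of these lists called in the direction opposite to the 5 called members.

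*Phgdh*, which diverts a glycolytic intermediate to serine synthesis, was at 145 and 138 RPKM in the IL-33 libraries, compared with 45.7 and 45.02 RPKM in the chronic HDM libraries (log2 fold change 1.62 ± 0.19 SE, limma adjusted p = 0.00932). In the same list of 19 tested isozymes and branch enzymes, *Pgam5* and *Adpgk* had the highest means among those not called (limma adjusted p = 0.955 and 0.703). Of the 19 genes of the tricarboxylic acid cycle list, all tested, 15 were separate with the IL-33 libraries higher, 9 passed an adjusted p of 0.05 with the fold and *Mdh2* was called, against 41.7%, 13.8% and 2.80% of all genes tested. *Mdh2*, mitochondrial malate dehydrogenase, was at 760 and 679 RPKM with IL-33, against 165 and 160 RPKM with chronic HDM (log2 fold change 2.13 ± 0.15 SE, limma adjusted p = 0.00665). *Sdhb* and *Idh3g*, the most abundant genes of the cycle not called, had log2 fold changes of 0.99 and 0.96 (limma adjusted p = 0.0236 and 0.0533). The median over this list was 0.99, against 0.97 for the module.

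*Bsg*, the chaperone that brings lactate transporters to the membrane, was measured at 375 and 312 RPKM in IL-33-stimulated ILC2s and 143 and 113 RPKM in chronic HDM-stimulated ones (log2 fold change 1.43 ± 0.20 SE, limma adjusted p = 0.0125). The malic enzyme *Me2*, also in the list of pyruvate and lactate handling, had a log2 fold change of 1.75 (limma adjusted p = 0.0384), and no gene of this list was called. Among other hexose transporters, 3 of 11 were tested and none was called, including *Slc2a6* and *Slc2a8* (limma adjusted p = 0.303 and 0.678). At an unadjusted limma p under 0.05, 32 genes of all these lists were higher after IL-33 and 6 after chronic HDM, against 25.5% and 11.2% of all genes tested. The gluconeogenic genes *Pck2* (log2 fold change 1.44, limma adjusted p = 0.0266) and *G6pc3* (log2 fold change 2.22, limma adjusted p = 0.0316) were higher after IL-33 at 0.05. *Fbp1*, the gluconeogenic phosphatase that opposes phosphofructokinase and was named after its values were seen, was at 6.60 and 2.95 RPKM in the IL-33 libraries, compared with 32.2 and 33.5 RPKM in the chronic HDM libraries (log2 fold change -2.63 ± 0.42 SE, limma adjusted p = 0.0155). With *Txnip* and *Mycn*, it made up the 3 listed genes higher after chronic HDM at 0.05, against 4.78% of all genes tested. *Fbp1* is also expressed by macrophages, whose markers summed higher in the chronic HDM libraries, and their part in this value was not tested.

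Among the regulators, *Myc* and *Mlx* had the highest means of those not called, with log2 fold changes of 1.40 and -0.83 (limma adjusted p = 0.102 and 0.152). Of the 10 tested targets of HIF-1 outside glycolysis, 1 was called higher after IL-33, against 2.80% of all genes tested. This was *Ero1l*, an oxidase for protein disulphides, at 312 and 261 RPKM with IL-33, against 97.4 and 73.6 RPKM with chronic HDM (log2 fold change 1.74 ± 0.22 SE, limma adjusted p = 0.009996, just under the threshold). *Ddit4* and *Higd1a*, the next targets by the same rule, had log2 fold changes of 2.57 and 1.11 (limma adjusted p = 0.0127 and 0.0940). The median over these 10 genes was 0.43, against 0.28 over all genes tested, and 3 were separate with the IL-33 libraries higher and 1 with the chronic HDM libraries higher, against 41.7% and 23.5% of all genes tested.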

How the data were processed

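RNA was sequenced by the authors from Smart-seq2 libraries of sorted BAL fluid ILC2s (single reads of 51 bp), aligned with HISAT2 (2.0.4, per the submitters' processing notes; mm10) and counted over exons with HOMER, 1 RefSeq transcript per gene. The deposited values are RPKM, per the file headers made from counts scaled to 10000000 reads, and they were used as deposited. The authors' own comparison used DESeq2, which was not run here. The deposited RPKM were tested with limma, and limma-voom was run on recovered reads as an alternative. RPKM steps implied 11743270 to 19224065 mapped reads, and at least 99.7% of values were whole reads within 0.1 read.

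Groups followed the labels (2 against 2). limma (version 3.58.1, R 4.3.3) was fitted with an intensity trend to log2(RPKM + 1) of genes whose mean reached 2 RPKM, two-sided, with Benjamini-Hochberg adjustment over all 9523 genes. The pseudocount understates changes of low genes. The steps were tested on simulated data. Alternatives were the pseudocount, the minimum, scalings, variance models, a replicate block, limma-voom and leaving out each library.

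All 38 members are named. Of each wider list, every called gene is named and, with fewer than 2 called, up to 2 uncalled genes of highest mean. Members and lists were chosen with earlier results of these data known. Windows of 51 bases were compared across GENCODE release M21 transcripts. Promoter sequences were taken from RefSeq, GRCm38.p6. Figures were drawn with matplotlib 3.10.9.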

Additional observations from a re-analysis of the deposited data

How the results depend on the processing

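The 5 called members had a positive log2 fold change under all 17 alternatives, but for many of these that was fixed in advance. Changing the minimum, the intensity trend, the variance model, the library weights or the block leaves the fold as it was. Leaving out 1 library cannot turn the sign of a gene whose groups do not overlap. The number of members called higher after IL-33 varied. It was 0 with a pseudocount of 0.1, without a minimum RPKM, without the intensity trend and with limma-voom on recovered reads (19, 19, 18 and 19 members higher at an unadjusted p under 0.05, against 23.8%, 20.1%, 23.4% and 21.9% of all genes), where no gene at all was called, 2 with each library at the same RPKM sum, 13 at an adjusted p under 0.05 and 0 to 16 when 1 library was left out. Fewer samples leave less spread to estimate in those fits, in which the lone library is assumed to vary like the other group. For the other pathway genes, the number called higher after IL-33 and after chronic HDM was 0 and 0 with a pseudocount of 0.1, without a minimum, without the trend and with limma-voom, 1 and 0 with median-of-ratios scaling, the same RPKM sum or scaling without 45S ribosomal RNA, and 21 and 3 at an adjusted p under 0.05. It was 8 higher after IL-33 with a mean of at least 5 RPKM, 2 with quantile normalization and 9 with a weight per library, and 0 higher after chronic HDM with robust variances. Leaving out 1 library gave 0 to 32 and 0 to 7. With the replicate number as a block, 8 members and 17 other genes were called higher after IL-33 and 2 other genes higher after chronic HDM, against 10.4% and 2.80% of all genes. Over all genes tested, same-numbered libraries did not deviate together (correlation -0.04). Whether they share more than a number was not tested, and this value cannot show it for part of the genes.

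Rescaling lowered the median of all genes from 0.28 to -0.0029 (quantile), 0.072 (median-of-ratios), 0.014 (same RPKM sum) and 0.024 (without 45S). The median of the members was then 0.52 (quantile), 0.74 (median-of-ratios), 0.68 (same RPKM sum) and 0.69 (without 45S). Step totals with the same RPKM sum and with median-of-ratios scaling were 0.16 and 0.22 for glucose uptake, 1.45 and 1.51 for phosphofructokinase, 0.61 and 0.68 for aldolase, 1.86 and 1.93 for enolase and 1.31 and 1.37 for lactate dehydrogenase. With pseudocounts of 0.1 and 2, the log2 ratio differed by 3.09 and 1.47 for *Hk2* over *Hk1*, by 4.47 and 0.70 for *Aldoc* over *Aldoa* and by -3.25 and -2.66 for *Pdk1* over *Pdk3*, and with 0.1 by 1.67 for *Eno3* over *Eno1*.

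Some members that were not called changed sign. Under quantile normalization these were *Gpi1* (-0.17), *Pfkfb3* (-0.80), *Mpc1* (-0.0823), *Mpc2* (-0.29), *G6pdx* (-0.12), *Pgls* (-0.0576) and *Pgd* (-0.17). Under median-of-ratios scaling they were *Pfkfb3* (-0.0450), *Mpc2* (-0.0087) and *G6pdx* (-0.0097). With the same RPKM sum they were *Pfkfb3* (-0.0570), *Mpc2* (-0.0717), *G6pdx* (-0.0709) and *Pgd* (-0.0292), and without 45S *Pfkfb3* (-0.0738), *Mpc2* (-0.0625), *G6pdx* (-0.0624) and *Pgd* (-0.0197). *Pfkfb3* was at -0.0247 with a pseudocount of 2, and *Pfkfb4* at 0.35 with 0.1 and at 1.90 with limma-voom. When 1 library was left out, the lowest and highest values were -0.52 and 0.10 for *Slc2a1*, -0.44 and 0.36 for *Hk1*, -2.09 and 0.14 for *Pfkfb4*, -1.11 and 0.21 for *Pfkfb3*, -0.50 and 1.83 for *Slc16a3*, -0.15 and 0.58 for *G6pdx* and -0.0784 and 0.60 for *Pgd*. The cause was not tested. With 2 libraries in each group, members below a few RPKM could not be placed.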

Other observations

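Between replicates, the members differed by a median of 0.20 on the log2 scale after IL-33 and 0.41 after chronic HDM, against 0.23 and 0.57 over all genes tested. In the chronic HDM pair, 9 of the 36 tested members differed by over 1, against 28.2% of all genes tested, with the largest difference for *Pfkfb4* (3.25 on the log2 scale, replicate 2 higher).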
